A study of Mus musculus with 12 samples.

Results

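The genotype difference in sham-operated tissue was measured on 6 of the 12 expression arrays of the series, 3 from SUMO-KD and 3 from wild-type mice. The arrays were taken by their labelled genotype and surgery, and each held total RNA of the hippocampal CA1 subfield pooled from 2 mouse brains. The other 6 arrays came from the same genotypes after 10 minutes of transient forebrain ischemia with 3 hours of reperfusion. They are used here to see whether a difference found in sham tissue recurred in other pools. The same 3 hours are given for the sham arrays, so sham tissue was also taken soon after surgery. The sham groups differed by genotype alone as far as the labels go: wild-type mice carried no stated allele, and SUMO-KD mice are labelled as transgenic with a knockdown of SUMO. The promoter, the construct, the SUMO genes it targets, the founder line, the strain background, sex and litter are not given in the labels, so effects of the knockdown, of the transgene's insertion and of genetic background cannot be told apart. Samples are labelled as biological replicates, and p-values measure the spread between these pools.

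SUMO proteins are small modifiers that are joined to lysines of other proteins by a cascade of an activating enzyme, the conjugating enzyme Ubc9 and ligases such as the PIAS proteins, and are taken off again by SENP proteases. Many targets are transcription factors and chromatin proteins, where the modification often goes with repression. In neurons, SUMO also marks synaptic and ion channel proteins, and conjugation rises steeply after ischemia. CA1 pyramidal neurons, the main cells of the subfield, are known for their sensitivity to such injury.

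The 6 sham arrays were alike in quality. Their median intensities were 141 to 155, and an intensity under 32 was read for 22.4% to 28.6% of probe sets. For Actb the 3′ signal was 1.42 to 1.74 times the 5′ signal, and for Gapdh 0.727 to 0.845 times. Pearson correlations of log2(intensity + 32) were 0.989 to 0.993 within wild-type sham, 0.990 to 0.992 within SUMO-KD sham and 0.981 to 0.991 between them, across genes, which are not independent.

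Expression of Sumo3, a gene for one of the SUMO modifiers, was reduced in SUMO-KD sham arrays. Its intensity was 2314, 2247 and 2467 in the 3 wild-type sham arrays and 1337, 1689 and 1655 in the 3 SUMO-KD sham arrays. Every SUMO-KD array was below every wild-type array, with replicate 1 the lowest. The log2 difference was −0.58 (SE 0.10; limma's adjusted p = 0.0096), where differences are of log2(intensity + 32), SUMO-KD minus wild-type, and adjusted p-values are Benjamini-Hochberg values over 12394 genes. Its probe set is marked as shared between transcripts, and a second probe set stood at 1.94 in wild-type and 3.17 in SUMO-KD, too dim to read. With both probe sets averaged the difference was −0.27 (adjusted p = 0.159), and with only the sham arrays in the fit the adjusted p was 0.0719. Sumo2 was not analysed here, because both of its probe sets list several genes.

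The enzymes of the SUMO cycle were close to level between genotypes. Of the 24 genes on the list of SUMO conjugation and deconjugation, 16 had a value. Of these, 1 was called lower (Sumo3), beside 0.597% of all genes, and 0 were called higher. In limma's test 3 had an unadjusted p under 0.05, beside 14.2% of all genes. The median difference of the list was 0.02, beside −0.01 over all genes tested. The other 15 members lay between −0.34 and 0.48. The lower end was Pias3, a SUMO ligase, with 408, 444 and 397 in wild-type sham and 312, 363 and 294 in SUMO-KD sham (−0.34, SE 0.11, adjusted p = 0.155). The upper end was Zfp451, another ligase, with 307, 439 and 381 against 547, 477 and 574 (0.48, SE 0.18, adjusted p = 0.236). The groups did not overlap for either gene, and neither passed. Sae1, a subunit of the activating enzyme, differed by 0.24, the ligase genes Pias1, Pias2 and Pias4 by 0.11, 0.17 and −0.08, and Ranbp2, a nucleoporin with ligase activity, by 0.03. The protease genes Senp1, Senp2, Senp3 and Senp6 differed by 0.01, 0.06, −0.09 and 0.06, and none of these passed. Among all genes, Rwdd3, whose product RSUME is known to enhance SUMO conjugation, was named after its values were seen. It had 109, 115 and 123 in wild-type sham and 216, 202 and 217 in SUMO-KD sham, with no overlap (0.72, SE 0.08, adjusted p = 0.000942), while its remaining probe set gave −0.02 (adjusted p = 0.947) when the one used, which is marked as shared, was left out.

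Across all genes, 260 of 12394 were called at an adjusted p under 0.05, which is 2.1%, and 1758 had an unadjusted p under 0.05. SUMO-KD was higher for 186 (1.5%) and lower for 74 (0.597%). All 260 had groups that did not overlap, as did 11% of all genes with SUMO-KD higher and 9.67% with SUMO-KD lower. At least a 2-fold difference was reached by 59 of the higher and 11 of the lower genes. Leaving out wild-type sham replicate 1 gave 112 calls (88 higher, 24 lower), wild-type sham replicate 2 gave 147 (114 and 33), SUMO-KD sham replicate 1 gave 131 (94 and 37) and SUMO-KD sham replicate 3 gave 112 (85 and 27). Just inside the threshold stood Lhx9, Ndel1 and Usp29, each at an adjusted p of 0.0498, and just outside stood Junb (0.0501), Ptgr1 (0.0507) and Glrx (0.0509).

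**Figure D1:**
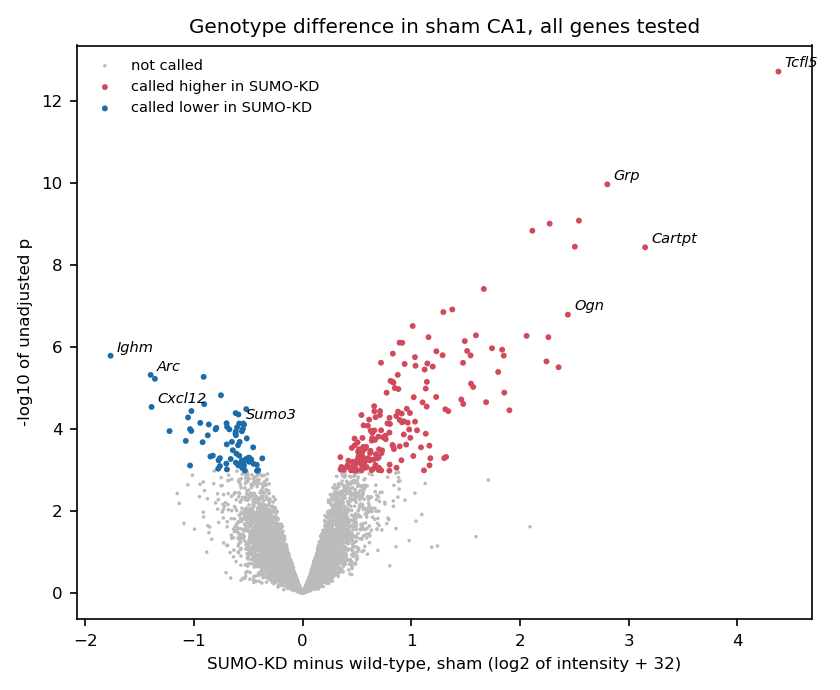
Each point is 1 of the 12394 genes, with the log2 difference SUMO-KD minus wild-type in sham on the x axis and −log10 of limma's unadjusted p on the y axis. The 186 genes called higher (red) reach 4.38 at Tcfl5, while the 74 called lower (blue) reach −1.77 at Ighm, so the larger differences lie on the side of higher expression.

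Tcfl5, a basic helix-loop-helix transcription factor known mainly from testis, had by far the largest difference. Its intensity was 22.7, 31.0 and 20.3 in wild-type sham and 1274, 1040 and 1126 in SUMO-KD sham. Wild-type arrays sat at the dim end of the scale and every SUMO-KD array stood above 1000, a difference of 4.38 (SE 0.11, adjusted p = 2.39e-09). The probe set is marked as shared between transcripts. Since 27 of the 186 genes called higher had a wild-type sham mean under 32, as Tcfl5 did, their differences on the offset scale understate the ratio of intensities.

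After Tcfl5, the largest differences were of Cartpt and Grp. Cartpt, the precursor of the neuropeptide CART, had 199, 186 and 124 in wild-type sham and 2026, 1375 and 1878 in SUMO-KD sham (3.15, SE 0.20, adjusted p = 6.58e-06). Grp, which encodes gastrin-releasing peptide, had 84.5, 89.4 and 98.4 against 705, 892 and 891 (2.80, SE 0.13, adjusted p = 6.72e-07). In both genes the lowest SUMO-KD array was several times the highest wild-type array. Baiap3, related to the Munc13 vesicle priming proteins, ranged from 24.9 to 56.5 in wild-type and from 257 to 408 in SUMO-KD (2.36, SE 0.28, adjusted p = 0.00104). The list of neuropeptides and secretion had 2 of 21 measured members called higher, beside 1.5% of all genes, and 0 lower. Of the 21, 7 had an unadjusted p under 0.05, beside 14.2% of all genes, and the median was 0.05. Its called members were Pcsk1, the prohormone convertase that cleaves peptide precursors, and Chga, chromogranin A of dense-core granules. Pcsk1 had 71.9, 55.7 and 32.4 in wild-type sham and 216, 210 and 237 in SUMO-KD sham (1.60, SE 0.16, adjusted p = 0.000447), and Chga rose by 0.46 (SE 0.10, adjusted p = 0.0454), a call lost when any of the 6 sham arrays was left out. Widely used peptide genes of interneurons did not pass, among them Npy (0.12), Sst (−0.05) and Vip (−0.28).

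The promoters of Cartpt and Pcsk1 are shown because both peptide pathway genes rose and both hold a full cyclic AMP response element, the letters TGACGTCA, which bind CREB family factors. The windows are the 250 bases before the gene's start in RefSeq on GRCm38.p6, printed 5′ to 3′ along the gene, with the element in capitals. Cartpt lies on the minus strand at chr13:99900684-99900933 with its element beginning 112 bases before the start, and Pcsk1 on the plus strand at chr13:75089607-75089856 with its element 78 bases before the start.
Cartpt: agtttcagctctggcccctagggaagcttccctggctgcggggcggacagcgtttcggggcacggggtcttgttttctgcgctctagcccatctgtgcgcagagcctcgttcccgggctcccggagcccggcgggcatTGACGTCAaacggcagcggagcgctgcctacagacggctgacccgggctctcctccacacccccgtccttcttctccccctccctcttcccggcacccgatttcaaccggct
Pcsk1: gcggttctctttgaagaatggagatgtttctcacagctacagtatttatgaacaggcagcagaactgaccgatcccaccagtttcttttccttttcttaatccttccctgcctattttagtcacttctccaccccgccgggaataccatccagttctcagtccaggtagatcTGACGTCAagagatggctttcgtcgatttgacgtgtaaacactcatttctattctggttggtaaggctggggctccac
The element was found on either strand in 6 of 137 genes called higher that had a window (4.38%), in 1 of 60 called lower (1.67%) and in 2.99% of the 9888 tested genes with a window. The shares are a description of letters, and those of the genes called higher and of all genes are close. Of the other motifs searched on both strands, the E-box CACGTG was in 11.7% of the higher genes, 10.0% of the lower and 10.8% of all tested, and the E2F-type motif TTCCCGC in 9.49%, 8.33% and 8.45%. The window of Tcfl5, the gene with the largest rise, held none of the motifs searched.

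Among the remaining large rises, Pcdhb22, a clustered protocadherin of neuronal adhesion, had 57.9, 41.5 and 44.1 in wild-type sham and 475, 335 and 502 in SUMO-KD sham (2.54, SE 0.14, adjusted p = 3.05e-06). Tmem30b, an accessory subunit of lipid flippases, had 21.2, 24.9 and 21.0 against 307, 206 and 332 (2.51, SE 0.16, adjusted p = 6.58e-06). All wild-type arrays of both genes were dim and all SUMO-KD arrays were clear of them. Ogn, the small leucine-rich proteoglycan osteoglycin, ranged from 144 to 185 in wild-type and from 806 to 1240 in SUMO-KD (2.44, SE 0.22), and its second probe set gave 2.08. Lox, lysyl oxidase, which cross-links collagen and elastin, ranged from 30.7 to 62.2 and from 301 to 365 (2.26, SE 0.23). Its other probe sets gave 1.19 and, at the dimmest, 0.06. Cdhr1, a cadherin known from photoreceptors, rose by 2.24 (SE 0.26), with SUMO-KD arrays from 347 to 698, and Kdf1, known as a keratinocyte differentiation factor, by 2.27 (SE 0.13) from wild-type arrays of 6.65 to 12.5. Cdr2, an onconeural antigen gene, had 249, 266 and 299 against 1416, 1193 and 1234 (2.11, SE 0.12, adjusted p = 3.63e-06). Mkrn3, an imprinted gene for a RING-type ubiquitin ligase known for timing puberty, rose by 2.06 (SE 0.21) with SUMO-KD arrays from 187 to 219, and no other of the 3 measured makorin genes was called. None of these 12 largest rises lost its call when any 1 of the 12 arrays was left out, but Kdf1 lost it without shared probe sets (0.78, adjusted p = 0.114). Tcfl5 had no value in that setting, because its only probe set with a single symbol is marked as shared.

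**Figure D2:**
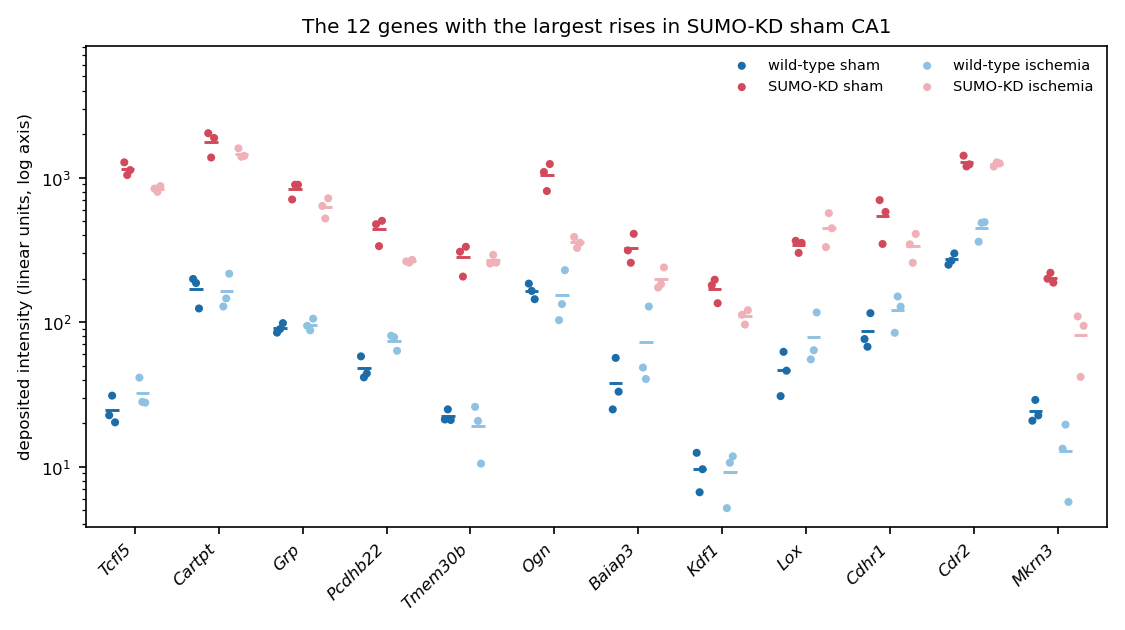
Deposited intensity on a log axis for the 12 genes with the largest rises in SUMO-KD sham, with 1 point per array, bars at group means, and ischemia arrays in pale colours. In each gene the 3 SUMO-KD sham points lie above the 3 wild-type sham points, and the same order holds among the ischemia arrays for all 12.

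Pcdhb22 was not alone in its gene cluster. The protocadherin beta genes encode adhesion proteins that neurons express in varied combinations, and 22 were measured. Pcdhb17, Pcdhb20, Pcdhb21 and Pcdhb22 were called higher, beside 1.5% of all genes, and 0 lower, and the family median was 0.15. Pcdhb20 had 279, 228 and 306 in wild-type sham and 811, 783 and 858 in SUMO-KD sham (1.49, SE 0.15, adjusted p = 0.000516). Pcdhb21 had 94.2, 97.1 and 95.6 against 497, 345 and 407 (1.80, SE 0.22), and neither gene's groups overlapped. Pcdhb17 rose by 0.99 (SE 0.18, adjusted p = 0.016), and its call was lost without any of 5 sham arrays, SUMO-KD sham replicate 3 being the one that kept it. Pcdhb20, Pcdhb21 and Pcdhb22 follow each other among the measured genes on GRCm38.p6, and the next measured gene, Slc25a2, was also called higher (0.51, adjusted p = 0.0271). Signal shared between probe sets of such similar genes was not tested. Over the genome, 12370 measured genes were placed, and 2.1% of all genes tested were called. Among the placed genes, 7 pairs of neighbours had both members called, 5 of them in the same direction. Whether 7 is more than a random order of genes would give was not tested. The others in the same direction were Klk8 with Klk7, both lower, and Trp53inp1 with Ccne2, both higher. Arc with Jrk and Kctd1 with Aqp4 went opposite ways. The family and the pairs were looked at after the values were seen.

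Genes of structural maintenance of chromosomes complexes were also looked at as a family after Smc5 was seen. Of 7 measured SMC genes 3 were called higher, beside 1.5% of all genes, and 0 lower, with a median of 0.13. Smc5, of the complex that itself carries a SUMO ligase, had 224, 221 and 236 in wild-type sham and 689, 611 and 522 in SUMO-KD sham (1.30, SE 0.11, adjusted p = 0.000175). Smc2 and Smc4, the condensin pair, rose by 0.92 (SE 0.10, adjusted p = 0.000516) and 0.77 (SE 0.11, adjusted p = 0.00299). The SUMO-KD arrays lay above all wild-type arrays in each of the 3 genes, and each call stood when any 1 array was left out. Smc1a, Smc1b, Smc3 and Smc6 did not pass.

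Among genes that fell, activity-dependent immediate early genes were the largest group on a list. These genes are switched on within minutes by neuronal firing and encode transcription factors and synaptic regulators. Of 38 measured, 5 were called lower (13.2%, beside 0.597% of all genes) and 0 higher. In limma's test 17 had an unadjusted p under 0.05, beside 14.2% of all genes. The list's median difference was −0.21, beside −0.01 over all genes, and 31 of 38 differences were below 0, beside 52.9% of all genes. In 17 members (44.7%, beside 9.67% of all genes) all SUMO-KD sham arrays were below all wild-type sham arrays, and 12 of these did not pass. The 5 calls became 2 without wild-type sham replicate 1 or SUMO-KD sham replicate 3, and 3 without wild-type sham replicate 2 or SUMO-KD sham replicate 1.

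Arc, which encodes a synaptic protein that drives AMPA receptor endocytosis, had 1280, 1118 and 837 in wild-type sham and 424, 439 and 302 in SUMO-KD sham. The lowest wild-type array was above the highest SUMO-KD array, and the difference was −1.40 (SE 0.17, adjusted p = 0.00145). Nr4a1, an orphan nuclear receptor gene, had 1536, 1458 and 1002 against 531, 587 and 511 (−1.22, SE 0.21, adjusted p = 0.0122). Its relative Nr4a2 had 631, 500 and 303 against 187, 210 and 206 (−1.07, SE 0.20, adjusted p = 0.0179), and a second probe set gave −0.65. In all 3 genes replicate 3 was the lowest of the wild-type arrays and still above the SUMO-KD arrays. Egr1, a zinc finger transcription factor, had 7519, 5705 and 5497 against 3748, 3753 and 2753 (−0.86, SE 0.14, adjusted p = 0.00994). Cebpb, a bZIP transcription factor, was at 917 to 1057 in wild-type and at 652 to 786 in SUMO-KD arrays (−0.50, SE 0.10, adjusted p = 0.0344). The calls of Arc and Egr1 stood in each omission of 1 array, though Egr1 lost its own with only the sham arrays in the fit (adjusted p = 0.0776), while those of Nr4a1, Nr4a2 and Cebpb were lost without wild-type sham replicate 1, wild-type sham replicate 2 or SUMO-KD sham replicate 3, among others. Several well-known members that missed the threshold had the same sign, though not all did. Fos had 656, 732 and 599 against 399, 448 and 271 (−0.80, SE 0.24, adjusted p = 0.134), Junb differed by −0.81 (SE 0.19, adjusted p = 0.0501), Dusp6 by −0.75, Egr2 by −0.90, Egr4 by −0.78 and Nr4a3 by −0.61. Jun (0.45) and Cebpd (0.41) were on the other side of 0 and did not pass.

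Srf, the serum response factor that drives many immediate early genes through CArG boxes, was not on the list and was named after its values were seen. It had 763, 704 and 727 in wild-type sham and 548, 480 and 457 in SUMO-KD sham. The groups were clear of each other, and the difference was −0.54 (SE 0.09, adjusted p = 0.00997), a call lost without wild-type sham replicate 1 (0.0583) or SUMO-KD sham replicate 3 (0.0574). Its own promoter is shown because it holds a pair of CArG boxes, in capitals, at 82 and 62 bases before the start. The window is that of RefSeq on GRCm38.p6, minus strand, chr17:46556163-46556412.
Srf: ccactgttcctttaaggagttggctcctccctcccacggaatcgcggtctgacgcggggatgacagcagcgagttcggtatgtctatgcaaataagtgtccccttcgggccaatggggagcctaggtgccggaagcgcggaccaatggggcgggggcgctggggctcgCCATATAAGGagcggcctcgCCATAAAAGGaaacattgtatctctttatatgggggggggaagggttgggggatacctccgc
A CArG box was found on either strand in 2 of 60 genes called lower with a window (3.33%, Srf and Trpc6), 2 of 137 called higher (1.46%) and 1.75% of tested genes with a window.

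The largest fall was of Ighm, the immunoglobulin mu heavy chain, with 402, 280 and 371 in wild-type sham and 56.0, 110 and 78.6 in SUMO-KD sham (−1.77, SE 0.20, adjusted p = 0.000725). Its probe set is marked as shared between transcripts, and without such probe sets the difference was −0.26 (adjusted p = 0.558), so the call was lost. Of its 11 probe sets, 2 others had an unadjusted p under 0.05. Cxcl12, a chemokine of neurons and vessels, had 775, 760 and 1014 against 210, 297 and 435 (−1.39, SE 0.21, adjusted p = 0.00553), but its second probe set differed by −0.13. Zfpm1, the GATA cofactor FOG1, had 431, 405 and 382 against 173, 149 and 102 (−1.36, SE 0.17, adjusted p = 0.00173). The groups of all 3 genes were clear of each other.

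Among the other large falls, Wnt2, a Wnt ligand, fell by 1.05 on the log2 scale (SE 0.17), from 149 to 193 in wild-type to 57.5 to 76.7 in SUMO-KD. Grem1, an antagonist of bone morphogenetic proteins, fell by 1.02 (SE 0.18), Depdc7 by 1.04 (SE 0.18), and Cd34, a surface sialomucin of vessels and blood progenitors, by 1.04 (SE 0.23, adjusted p = 0.0428). Klk8, neuropsin, a serine protease of hippocampal neurons, had 360, 404 and 365 against 210, 184 and 123 (−1.02, SE 0.16, adjusted p = 0.00629). Among 16 measured kallikrein genes 2 were called lower, beside 0.597% of all genes. Klk8 was joined by Klk7 (−0.70, adjusted p = 0.0487), which is dim and lost its call in 10 of the 12 omissions of an array (adjusted p up to 0.167). Doc2b, a calcium sensor for vesicle fusion, had 1662, 1176 and 1516 against 859, 635 and 720 (−0.94, SE 0.16, adjusted p = 0.0096). Of the 12 largest falls, 6 lost their call in at least 1 omission of an array: Nr4a1, Nr4a2, Depdc7, Cd34, Grem1 and Doc2b. Grem1 and Doc2b were lost without wild-type sham replicate 1 (0.0624 and 0.0518), and Depdc7 without that array or SUMO-KD sham replicate 1 or 3. Cd34 was lost without any sham array other than SUMO-KD sham replicate 2. It was also lost without wild-type ischemia replicate 1 or any SUMO-KD ischemia replicate, and with no offset or an offset of 16. With only the sham arrays in the fit, Cxcl12 (adjusted p = 0.0526) also lost its call, with Nr4a2, Depdc7, Cd34, Grem1 and Doc2b.

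**Figure D3:**
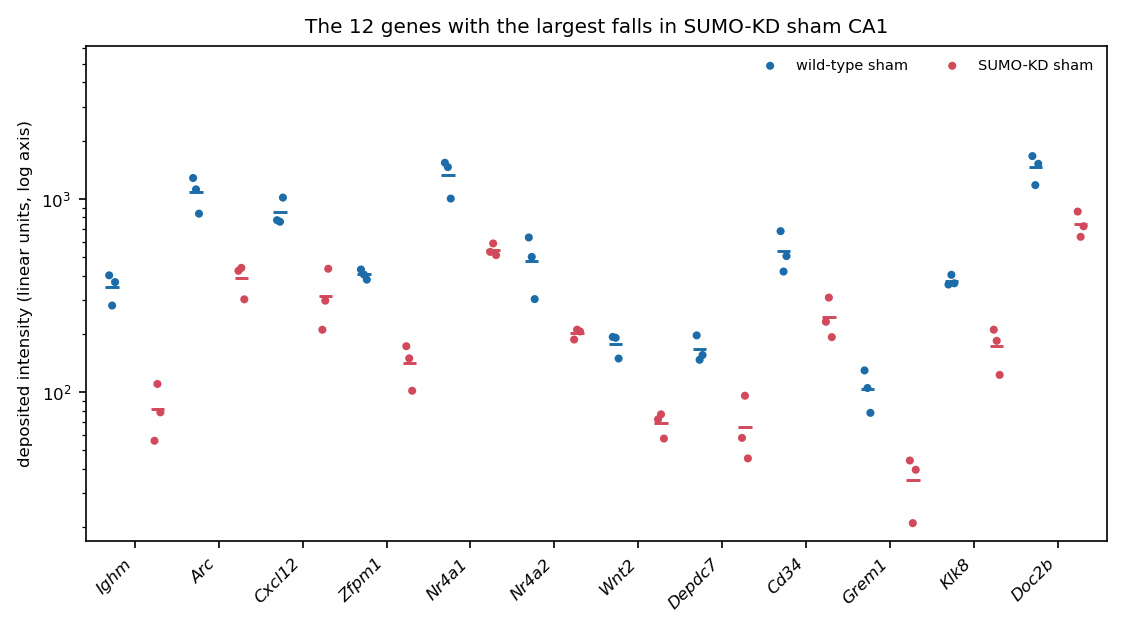
Deposited intensity on a log axis for the 12 genes with the largest falls in SUMO-KD sham, with 1 point per sham array and bars at group means. No SUMO-KD point reaches a wild-type point of the same gene, though the gap is narrow for Cd34 (308 against 420), Doc2b (859 against 1176) and Nr4a2 (210 against 303).

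Most other pathway lists held no called gene. Of 31 pathway lists, 22 had 0 calls by limma over 539 genes, of which 71 (13.2%) had an unadjusted p under 0.05, beside 14.2% of all genes. Medians of these lists ranged from −0.13 to 0.18. They include the proteasome (31 measured), ubiquitin conjugation (29), SUMO-linked repressors and PML bodies (19), splicing factors (37), oxidative phosphorylation (42), interferon response (25) and ER stress targets (32). The highest of these medians, 0.18, was that of cholesterol synthesis, where 14 of 16 measured genes were above 0. The lowest, −0.13, was that of ER stress and ATF4 targets, where 26 of 32 were below 0. Of these 32, 8 had SUMO-KD arrays below all wild-type arrays, beside 9.67% of all genes. An unadjusted p under 0.05 was found for 11 of the 32, beside 14.2% of all genes. For voltage-gated channels it was found for 9 of 26 measured genes, with 18 below 0 and a median of −0.09. Their summed intensity was 22866 to 24120 in wild-type and 20720 to 22142 in SUMO-KD sham. For synaptic vesicle and scaffold genes it was found for 7 of 27, with 19 below 0, a median of −0.10 and overlapping sums. Single calls fell in 6 further lists, where 1.5% of all genes were called higher and 0.597% lower. Dnajb1, an HSP40 co-chaperone, had 1623, 1432 and 1333 in wild-type sham and 986, 1012 and 835 in SUMO-KD sham (−0.61, SE 0.11, adjusted p = 0.0124), the one call among 28 heat shock genes, lost without wild-type sham replicate 1 or SUMO-KD sham replicate 3. Fkbp5, a co-chaperone induced by glucocorticoids, had 1000, 947 and 1035 against 1962, 1934 and 2233 (1.01, SE 0.10, adjusted p = 0.000318), the one call among 19 glucocorticoid targets, whose median was 0.06. Groups of both genes were clear of each other. Cnih3, an AMPA receptor auxiliary subunit, rose by 1.29 (SE 0.14) among 18 ionotropic glutamate receptor genes. Of these 18, 12 were below 0, and their median was −0.12. In 5 of them all SUMO-KD sham arrays were below all wild-type sham arrays, beside 9.67% of all genes, and in 1 they were above. Their summed intensity was 19904 to 20813 in wild-type and 16639 to 19152 in SUMO-KD sham. Prkra, a partner of Dicer, rose by 0.71 (SE 0.11) among 14 genes of microRNA processing. Trp53inp1, a p53 target, rose by 1.05 (SE 0.18), with a dim second probe set at −0.10, and Apaf1, the apoptosome scaffold, by 1.13 (SE 0.20), a call lost without wild-type sham replicate 1 or 2 or SUMO-KD sham replicate 1 or 3.

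Markers of cell types and neighbouring regions were read next. In bulk RNA, fewer cells of a type, less RNA per cell and a different share of neighbouring tissue in the sample cannot be told apart. Of 10 listed CA1 pyramidal markers, 5 were measured and 2 of these were called lower, beside 0.597% of all genes, with a list median of −0.87. Wfs1, wolframin of the endoplasmic reticulum, had 2708, 2126 and 1922 in wild-type sham and 1343, 1225 and 1058 in SUMO-KD sham (−0.87, SE 0.16, adjusted p = 0.0144). Man1a, a Golgi mannosidase, had 1986, 1376 and 1444 against 713, 1146 and 787 (−0.85, SE 0.18, adjusted p = 0.0332). Lefty1 (−1.06, adjusted p = 0.0788) and the transcription factor gene Pou3f1 (−0.88, adjusted p = 0.118) did not pass, though neither gene's groups overlapped, and Dcn, which fibroblasts also make, was at 0.24. The summed intensity of the 5 markers was 6452 to 8797 in wild-type and 3528 to 4832 in SUMO-KD sham arrays. The 2 calls became 0 without wild-type sham replicate 1 or SUMO-KD sham replicate 3, and 1 when SUMO-KD sham replicate 1, wild-type sham replicate 3 or replicate 2 of wild-type ischemia was left out. With only the sham arrays in the fit neither Wfs1 (adjusted p = 0.0533) nor Man1a (0.136) passed, and 1 other marker of the list did. The part of these differences in the other results was not tested.

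Of 10 measured dentate gyrus markers, 2 were called higher and 1 lower, beside 1.5% and 0.597% of all genes, and 7 did not pass. The list's median was 0.27, with summed intensities of 6604 to 8642 in wild-type and 9274 to 11638 in SUMO-KD sham. Calb1, the calcium buffer calbindin, which CA1 pyramidal neurons also make, had 3243, 2957 and 3339 against 5284, 4347 and 5035 (0.61, SE 0.10, adjusted p = 0.00863), and its second probe set gave 0.67. Neurod1, a bHLH transcription factor of granule cells, had 992, 925 and 1071 against 1645, 1368 and 1697 (0.64, SE 0.12, adjusted p = 0.0178). Trpc6, a cation channel, had 89.7, 91.3 and 106 against 53.9, 41.7 and 36.4 (−0.75, SE 0.10, adjusted p = 0.00339). The defining granule cell gene Prox1 did not pass (0.35, adjusted p = 0.482), and its wild-type sham mean was 50.1. The Neurod1 call was lost without wild-type sham replicate 1 or 2 or SUMO-KD sham replicate 1 or 3. With only the sham arrays in the fit both higher calls were lost, at an adjusted p of 0.053 for Calb1 and 0.0575 for Neurod1. Markers of neighbouring cortex and subiculum had 2 of 9 called lower (Lamp5, −0.76, and Nr4a2), beside 0.597% of all genes. Their sums were 3744 to 4338 against 2869 to 3337. That count became 0 without wild-type sham replicate 1 or 2 or SUMO-KD sham replicate 1 or 3, and 1 without wild-type sham replicate 3 or SUMO-KD sham replicate 2. Of 14 interneuron markers, 1 was called lower, beside 0.597% of all genes. It was Dlx1, a homeobox gene of these cells (−0.58, SE 0.12, adjusted p = 0.0323), a call lost without any sham array other than SUMO-KD sham replicate 1. The interneuron median was −0.26 and the summed intensities of the genotypes overlapped. Of the 14 interneuron markers, 11 were below 0. In 6 of them all SUMO-KD sham arrays were below all wild-type sham arrays, beside 9.67% of all genes. An unadjusted p under 0.05 in limma's test was found for 5, beside 14.2% of all genes.

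Astrocyte and meningeal lists had 3 calls each, all higher, where 1.5% of all genes were. Of 12 astrocyte genes, Gfap, the intermediate filament gene (0.59, SE 0.13, adjusted p = 0.0449), Aqp4, the water channel gene (0.52, SE 0.10, adjusted p = 0.0253), and Slc14a1, a urea transporter gene (0.62, SE 0.13, adjusted p = 0.036), were called. The list's median was 0.10, its sums were 23710 to 27422 in wild-type and 28245 to 30664 in SUMO-KD sham, and Aldh1l1 (−0.05), Slc1a2 (0.04) and Gja1 (0.09) did not pass. The astrocyte count became 0 without wild-type sham replicate 1 or 2 or SUMO-KD sham replicate 2 or 3, and 1 without SUMO-KD sham replicate 1 or any SUMO-KD ischemia replicate. It was also 1 after quantile normalization or centring on the median, and 0 with only the sham arrays in the fit. Of 11 meningeal and fibroblast genes, Ogn, Col6a1, a type VI collagen chain (75.6, 103 and 68.8 against 507, 293 and 365; 1.86, SE 0.26, adjusted p = 0.00299), and Aldh1a2, which makes retinoic acid (1.30, SE 0.27, adjusted p = 0.0345), were called. The Aldh1a2 call was lost in 6 omissions, of wild-type sham replicate 1, 2 or 3, SUMO-KD sham replicate 2 or 3, or SUMO-KD ischemia replicate 3 (adjusted p up to 0.114). It was also lost with no offset (0.0618) and with only the sham arrays in the fit (0.112). Col1a1 (−0.23), Col1a2 (0.05), Lum (0.23) and Mgp (−0.28) of the same list did not pass. Summed meningeal intensity was 2568 to 2837 in wild-type and 3241 to 5513 in SUMO-KD sham, the highest being replicate 3.

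Thalamus and habenula markers were uneven between arrays of the same group. SUMO-KD sham replicate 3 had a summed intensity of 7685 over 9 genes, beside 3362 and 3745 in the other SUMO-KD sham arrays. Wild-type sham arrays had 2164, 2288 and 4087, and wild-type ischemia replicate 3 had 5926. SUMO-KD sham replicate 3 also had the highest meningeal sum, 5513. Tac2, a habenula peptide gene, had 96.9, 94.5 and 71.8 in wild-type sham and 337, 272 and 1137 in SUMO-KD sham, a difference of 2.09 that did not pass (adjusted p = 0.263). Limma called 0 of the 9, while 2 had an unadjusted p under 0.05. The part of the signal of SUMO-KD sham replicate 3 in other results was not tested beyond the omissions given. In all, 11 of 17 lists of cell types, blood and sex-linked genes had 0 calls over 100 genes, of which 17 (17%) had an unadjusted p under 0.05. Among them were microglia, endothelium, mural cells, choroid plexus, oligodendrocytes and CA3. Medians of these lists ranged from −0.42, for choroid plexus and ependyma, to 0.30, for thalamus and habenula. The pan-neuronal list was also among them, with 10 of 11 measured genes below 0, beside 52.9% of all genes. Its median was −0.13, and 5 of the 11 had an unadjusted p under 0.05 in limma's test. Its sums were 37122 to 39554 in wild-type and 31275 to 35669 in SUMO-KD sham, without overlap.

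**Figure D4:**
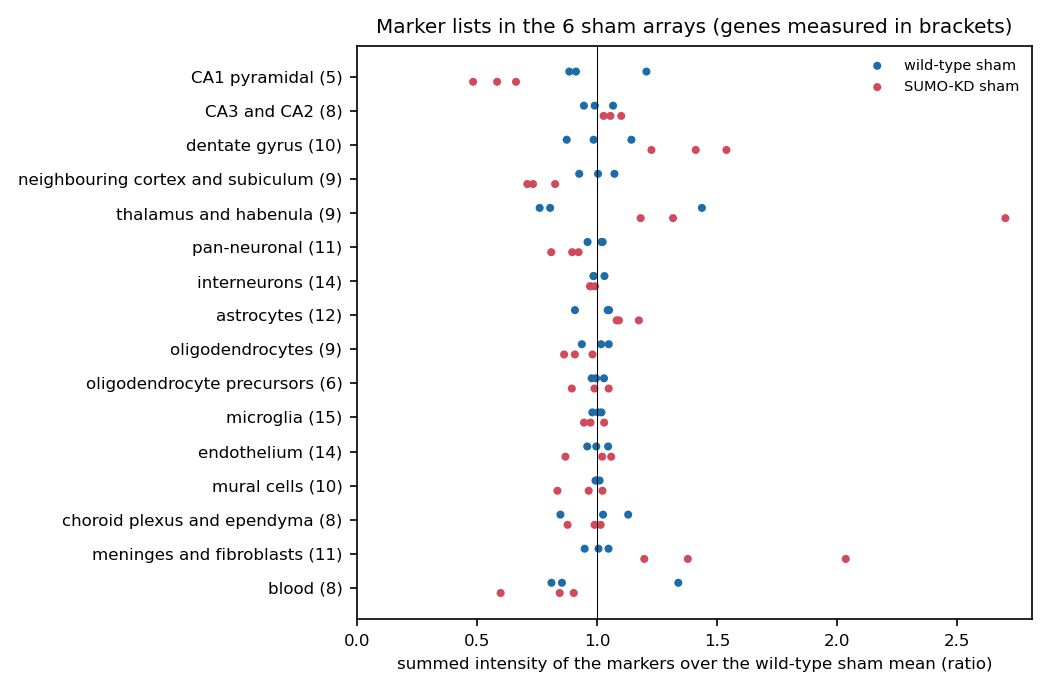
Summed intensity of each marker list in each sham array, divided by the wild-type sham mean, with the number of genes measured in brackets. CA1 pyramidal markers lie at 0.483 to 0.662 in SUMO-KD sham against 0.884 to 1.20 in wild-type, dentate markers at 1.23 to 1.54 against 0.873 to 1.14, and the highest thalamic value, 2.70, is SUMO-KD sham replicate 3.

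The genes called in sham were then read in the 6 ischemia arrays. Those arrays have no part in the sham difference itself, but they share the fitted spread and the choice of probe sets with it, so they are not fully separate from the calls. Of the 186 higher genes, 172 were above 0 after ischemia, and of the 74 lower genes 68 were below 0, so 92.3% kept their sign, beside 63.4% of the genes not called in sham. A call in the same direction was made for 69 of the higher (37.1%) and 10 of the lower genes (13.5%), where the ischemia contrast called 193 of all genes (1.56%), 1% of all genes higher and 0.557% lower. The median difference of the higher genes was 0.79 in sham and 0.47 after ischemia, and that of the lower genes −0.62 and −0.25. Since genes were chosen by their sham difference, their sham values are favoured. The Pearson correlation of the 2 differences was 0.87 over the 260 genes and 0.51 over all genes, a description across genes that share probe sets and the fitted spread. The 79 genes called in both became 40 without wild-type ischemia replicate 1, 48 without SUMO-KD ischemia replicate 1 and 31 without SUMO-KD ischemia replicate 3.

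Nearly all of the largest rises recurred. Of the 12, 11 were called higher after ischemia, and all 12 had groups that did not overlap, as did 11.3% of all genes in that direction. Tcfl5 had 41.3, 28.0 and 27.7 in wild-type ischemia and 839, 796 and 872 in SUMO-KD ischemia (3.76, adjusted p = 1.34e-08). Cartpt differed by 2.96 (adjusted p = 2.28e-05), Tmem30b by 2.56, Grp by 2.35 and Kdf1 by 1.78, these being the 5 with the smallest p after ischemia. Baiap3 was the exception (1.23, adjusted p = 0.0582). Of the 12 largest falls, 2 were called lower after ischemia, Ighm (−1.41, adjusted p = 0.00564) and Cxcl12 (−1.27, adjusted p = 0.012), while all 12 were below 0 and 8 did not overlap, as did 8.9% of all genes in that direction.

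Of the 38 immediate early genes, which ischemia itself is known to induce, 5 were called lower in sham and 6 after ischemia, with medians of −0.21 and −0.34, but the calls were not all of the same genes. Arc had 6229, 6012 and 7270 in wild-type ischemia and 3831, 4898 and 4363 in SUMO-KD ischemia (−0.57, adjusted p = 0.142), with no overlap. Egr1 had 10933, 11884 and 10662 against 11273, 10876 and 12231, and the groups overlapped (0.04, adjusted p = 0.936). Nr4a1 differed by −0.39 (adjusted p = 0.423). Cebpb (−0.64, adjusted p = 0.0116) and Srf (−0.43, adjusted p = 0.0372) were lower again. Interactions of genotype and surgery did not pass for these genes, so their sham and ischemia differences are not shown to differ. Wfs1 (−0.33, adjusted p = 0.349) and Man1a (0.04, adjusted p = 0.946) did not pass after ischemia, and Calb1 did (0.86, adjusted p = 0.00148).

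**Figure D5:**
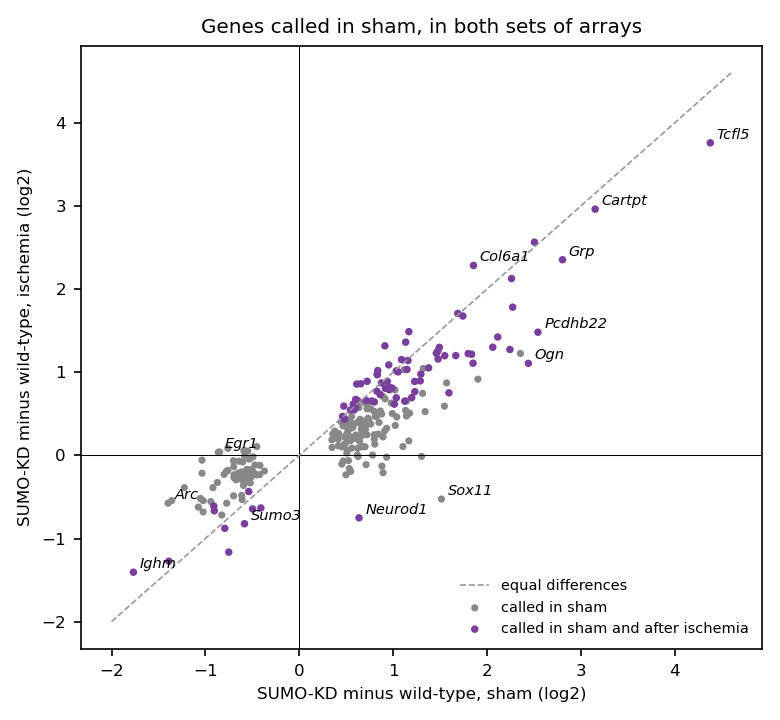
Each point is 1 of the 260 genes called in sham, with its log2 difference SUMO-KD minus wild-type in sham on the x axis and after ischemia on the y axis. Most points lie in the same-sign quadrants, purple marks genes called in both (79 with the same sign), and Sox11 and Neurod1 lie below 0 after ischemia although higher in sham.

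The interaction of genotype and surgery was called for 2 of 12394 genes (0.0161%). With 3 arrays per group, the differences of the other genes are not shown to be equal. Large interactions that did not pass include Ogn (−1.33, SE 0.31, adjusted p = 0.429) and Egr1 (0.90, SE 0.20, adjusted p = 0.425). Sox11, a SoxC transcription factor of immature neurons and of regeneration, had 181, 230 and 209 in wild-type sham and 667, 570 and 715 in SUMO-KD sham (1.51, SE 0.16, adjusted p = 0.000687). After ischemia it had 845, 529 and 768 in wild-type and 414, 524 and 501 in SUMO-KD (−0.53, adjusted p = 0.154). The SUMO-KD arrays were above all wild-type arrays in sham and below them after ischemia, and the interaction was −2.04 (SE 0.23, adjusted p = 0.0219). The Sox11 probe set is marked as shared between transcripts. Neurod1 was higher in sham by 0.64 and lower after ischemia by 0.75 on the log2 scale, from 1325, 1356 and 1534 in wild-type to 894, 708 and 870 in SUMO-KD (−0.75, adjusted p = 0.0103), with an interaction of −1.39 (SE 0.17, adjusted p = 0.0219). The count of 2 became 0 without any sham array other than SUMO-KD sham replicate 2, without wild-type ischemia replicate 3 and without any SUMO-KD ischemia replicate.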

How the data were processed

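Total RNA of CA1 was measured on 12 Affymetrix arrays, 3 per group. The deposited values are linear intensities of 22690 probe sets on every array. Per the submitters' processing notes, Partek 6.6 and RMA were used. The values are not on RMA's log2 scale, and how they were made is not stated in the labels. Gene symbols came from the platform annotation. Of the probe sets, 20393 list 1 symbol, 691 several and 1606 none, and the brightest single-symbol probe set over the 12 arrays stood for each of 12394 genes. Group means of all 4 groups were fitted to log2(intensity + 32) with limma 3.58.1 in R 4.3.3, with Benjamini-Hochberg adjustment over all genes, two-sided, and calls at an adjusted p under 0.05. The number of arrays limits the precision, and the offset makes folds of dim genes too small. The procedure was tested on simulated data.

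Named were the SUMO list, the 12 largest rises and falls in sham, up to 3 called members of each of 48 gene lists, and the 5 genes with the smallest p after ischemia. Other named genes are said to be chosen after their values were seen. The members and lists were chosen with earlier results of these data known. Alternatives covered the offset, probe set choice, dim filters, normalization, samples in the fit, the replicate block, eBayes settings, array weights, fold thresholds and omission of each array.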

Additional observations from a re-analysis of the deposited data

Results flagged for a closer look

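The genotype difference of Sox11, a transcription factor gene of immature neurons, differed between surgeries in limma's interaction test: −2.04 on the log2 scale (ischemia minus sham difference; SE 0.23, adjusted p = 0.0219). All 3 SUMO-KD arrays were above the wild-type arrays in sham and below them after ischemia. The Sox11 probe set is marked as shared between transcripts, and Sox11 had no value without such probe sets. Neurod1, a transcription factor gene of granule cells, differed in the same way, with −1.39 (SE 0.17, adjusted p = 0.0219). Over the omissions of 1 array the Sox11 value ranged from −2.23 to −1.91 and the Neurod1 value from −1.48 to −1.29, while adjusted p-values rose above 0.05 in 9 of the 12 omissions for each, up to 0.115. With the replicate number as a block the adjusted p was 0.0615 for Sox11 and 0.0131 for Neurod1.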

How the results depend on the processing

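The 260 calls in sham were 156 with no offset (113 higher, 43 lower), 130 with only the sham arrays in the fit (104 and 26), 457 with array weights (297 and 160) and 70 at 2-fold or more (59 and 11). The 74 lower calls were also 113 at a mean log2 intensity of at least 7, 116 with trend and robust eBayes, and 45 at 1.5-fold or more. Omission of 1 array gave 112 to 271 calls, 85 to 187 higher and 24 to 84 lower. The 79 calls shared with ischemia were 41, 29, 133 and 33 under the first 4 settings, and 31 to 72 with an array omitted. The 2 interaction calls were 0 with no offset, 1 without shared probe sets (where Sox11 had no value), 1 at 2-fold or more, 1 with the replicate block, and 0 to 3 with an array omitted. With the replicate number as a block, 258 genes were called in sham (174 higher, 84 lower). Deviations of same-numbered arrays had correlations of 0.0055, 0.108 and 0.0236 in sham and 0.247, −0.166 and 0.0324 after ischemia. In every group the Actb 3′ to 5′ ratio fell from replicate 1 to replicate 3. Replicate 1 also had the lowest thalamus and habenula sum in every group. Whether the replicate numbers mark samples handled together is not stated in the labels, and the main fit does not pair them. Sumo3 was −0.27 (adjusted p = 0.159) as the mean of its probe sets, −0.58 (adjusted p = 0.0719) with the sham arrays alone, and 0.049 (adjusted p = 0.885) without shared probe sets, which leaves only its dim probe set; it ranged from −0.64 to −0.48 with an array omitted, with an adjusted p of at most 0.0431. Rwdd3 was −0.018 without shared probe sets. These were the 2 named genes that changed sign. Of 100 named genes called in sham, 54 kept their call in every omission and 46 lost it in at least 1. Further causes were not tested. Signal near background limits the dimmest genes: 11 called genes had both sham means under 32.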

Other observations

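Further genes called in sham were chosen after their values were seen. Some are known from growing or immature neurons and Thy1 from mature ones, and no list of either kind was tested. Gap43, a growth cone protein gene, had 619, 561 and 709 in wild-type sham and 1090, 1148 and 1198 in SUMO-KD sham (0.84, SE 0.11, adjusted p = 0.00195). After ischemia its difference was 1.02 (adjusted p = 0.000998). Marcksl1, an actin regulator gene of the MARCKS family, had 1368, 1292 and 1687 against 3815, 2873 and 3410 (1.20, SE 0.14, adjusted p = 0.00104). The groups were clear of each other in both. Cd24a, a surface sialoglycoprotein gene of young neurons, rose by 1.14 (SE 0.17), and Prph, the intermediate filament peripherin, by 1.74 (SE 0.19) from wild-type arrays of 2.09 to 14.5. Thy1, a surface glycoprotein of mature projection neurons, had 6416, 5597 and 6253 against 12290, 9847 and 11557 (0.88, SE 0.11, adjusted p = 0.00145). It was higher again after ischemia, by 0.87 (adjusted p = 0.00224). These calls stood in each omission of 1 array. The Prph call was lost with no offset (adjusted p = 0.0581) and as the mean of its probe sets (0.22, adjusted p = 0.553), and that of Cd24a without shared probe sets (0.69, adjusted p = 0.156).

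Genes of kinase and cyclic nucleotide signalling, also chosen after their values were seen, moved in both directions. Camk2d (0.88, adjusted p = 0.00253) and Camk2g (0.47, adjusted p = 0.0441), subunits of CaM kinase II, were higher. Camkk2 (−0.76, adjusted p = 0.0438) and Camk1d (−0.52, adjusted p = 0.0357), of the CaM kinase cascade, were lower. The phosphodiesterase genes Pde4b (0.63) and Pde8a (0.60) were higher and Pde2a (−0.52) lower, while Adcy6, an adenylyl cyclase (0.60), and Prkacb, a catalytic subunit of protein kinase A (0.55), were higher. Hrh3, a histamine receptor that is coupled to inhibition of adenylyl cyclase, had 240, 286 and 219 in wild-type sham and 918, 781 and 871 in SUMO-KD sham (1.67, SE 0.13, adjusted p = 5.95e-05). Lyst, the lysosomal trafficking regulator, had 1107, 1196 and 1383 against 3602, 2769 and 3381 (1.38, SE 0.12, adjusted p = 0.000168), and Kcna5, a potassium channel, rose by 1.85 (SE 0.21). Hrh3, Lyst, Kcna5, Camk2d and Pde2a kept their calls in each omission, and the others named in this paragraph lost theirs in at least 1.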
